A study of Rattus norvegicus with 6 samples.

Results

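The kynurenine pathway, the main route by which mammals break down tryptophan, was followed in dorsal root ganglia of SD rats through 10 enzyme genes chosen by name: Ido1, Ido2, Tdo2, Afmid, Kmo, Kynu, Haao, Acmsd, Qprt and Aadat. Group averages were used for 7 of the 10, out of 18696 genes with averages in the series, and expression of Ido1, Kynu and Acmsd was not analysed here. RNA was sequenced from 3 libraries of rats with spared nerve injury (SNI), where 2 branches of the sciatic nerve, the common peroneal and the tibial, were ligated and cut while the sural branch was spared, and from 3 libraries of sham-operated rats, whose nerve was only exposed. The dorsal root ganglion holds the cell bodies of the sensory neurons of the nerve, with glia, vessels and resident immune cells. The time after surgery, the ages and sexes, the side and level of the ganglia, and whether a library is 1 animal or a pool are not given in the sources read here.

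Tryptophan enters the pathway when a dioxygenase, encoded by Ido1, Ido2 or Tdo2, opens its indole ring, and a formamidase, encoded by Afmid, releases kynurenine. Kynurenine can then take several routes. Aminotransferases, among them the product of Aadat, turn it into kynurenic acid, which blocks NMDA-type glutamate receptors. Kynurenine monooxygenase (Kmo), kynureninase (Kynu) and the dioxygenase Haao lead towards quinolinic acid, which activates NMDA-type receptors, and Qprt uses quinolinic acid to make a precursor of NAD. Acmsd diverts the intermediate before quinolinic acid to picolinic acid and the glutarate route. In the brain Kmo is known mainly from microglia, and Tdo2 is best known as a liver enzyme under the control of glucocorticoids and haem.

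Of the 7 genes, 5 had a higher and 2 a lower average level in SNI ganglia than in sham ganglia. Kmo stood apart, with an average of 1.57 TPM (a length-corrected share of a library's transcripts) in SNI, against 0.260 TPM in sham, and it was the only 1 of the 7 found in the authors' deposited list of higher genes. None was in the authors' deposited list of lower genes. Qprt, the most abundant, averaged 21.3 TPM in SNI and 13.8 TPM in sham, while Tdo2 was the gene with the largest difference in the lower direction. Over all genes with averages, 53.1% were higher in SNI, the authors' higher list held 3.63% and their lower list 0.695%. A count of 1 in 7 is too small to read against that background.

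None of the 7 was among the 1637 genes with TPM per library, so the spread between libraries of a group is unknown and no test of SNI against sham could be made for any of them. Each value of a member is the authors' group average, with no SD. The deposited averages of read counts were multiplied by the 3 libraries of a group to give the reads behind each value. They gave whole numbers in both groups for 6 of the 7 genes (tolerance 0.001), the exception being Afmid. The exact 95% intervals of the ratios of reads (Clopper-Pearson, on the share of a gene's reads that came from SNI) cover counting error only. They say nothing of how animals or libraries differ. In these bulk samples fewer cells of a type and less RNA per cell cannot be told apart.

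**Figure D1:**
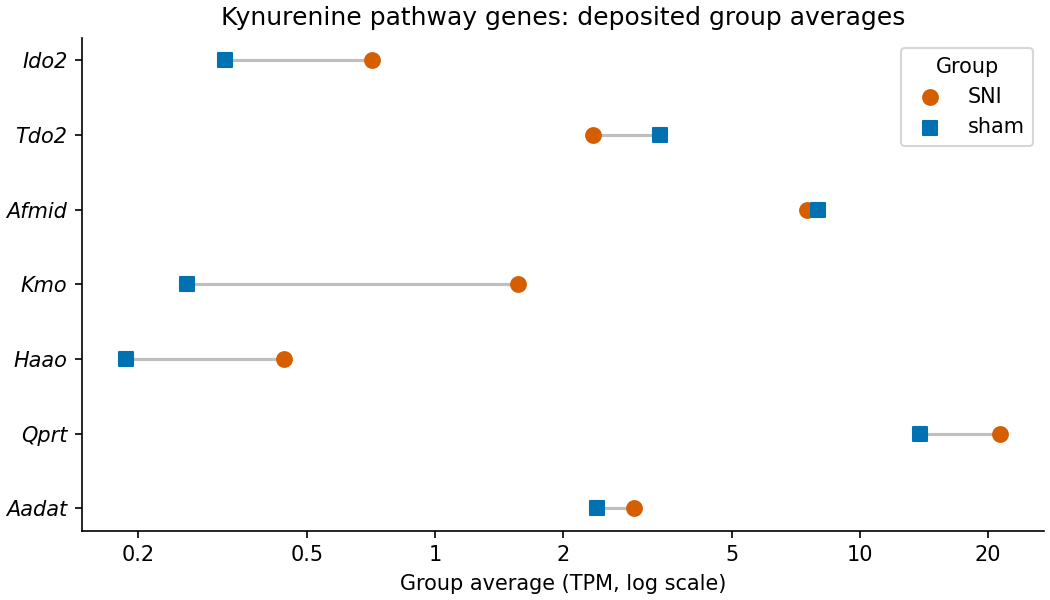
Deposited group averages of 7 kynurenine pathway genes (TPM, log scale), circles for SNI and squares for sham, in pathway order from top to bottom with Aadat, the side branch, last. Kmo has the widest gap, 1.57 TPM in SNI and 0.260 TPM in sham, and Qprt has the highest level in both groups.

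At the entry of the pathway, the 2 dioxygenase genes with values differed in opposite directions. Ido2 (NCBI Gene ID 681319), a dioxygenase related to Ido1, averaged 0.710 TPM in SNI and 0.320 TPM in sham, a ratio of 2.22. Behind it lay 65 reads over the SNI libraries and 29 over the sham libraries, a ratio of reads of 2.24 with a counting interval of 1.43 to 3.60. Ido1 and Ido2 are neighbouring genes of related sequence, with 0 genes listed between them in the RefSeq table of the GRCr8 assembly. Whether reads were shared between them is not known, so the level of Ido2 is uncertain. Tdo2 (Gene ID 64206) averaged 2.35 TPM in SNI and 3.38 TPM in sham, a ratio of 0.695. It had 108 reads in SNI and 154 in sham, a ratio of reads of 0.701 with a counting interval of 0.543 to 0.903. Tdo2 was the more abundant of the pair in both groups, and the level of Ido2 as a ratio to that of Tdo2 was 0.302 in SNI and 0.0946 in sham.

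Albumin (Alb), a defining gene of hepatocytes, the cells best known for Tdo2, averaged 0.240 TPM in SNI and 0.50 TPM in sham. Ttr was the 1 hepatocyte marker with TPM per library. It was at 2.57, 1.78 and 1.15 TPM in SNI libraries and 3.02, 3.51 and 3.77 TPM in sham libraries (log2 fold change -0.67, SE 0.18, limma adjusted p = 0.0091). The part of these markers in the difference of Tdo2 was not tested. Of the 5 hepatocyte markers found, 2 had a higher and 3 a lower average in SNI, none was listed at 0, and their summed averages were 84.5 TPM in SNI and 36.7 TPM in sham. Serpina1, a protease inhibitor also made outside the liver and, like Alb, named after its value was seen, gave 82.0 and 32.1 TPM of those sums in SNI and sham.

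The formamidase step had the ratio closest to 1. Afmid (Gene ID 688283) averaged 7.51 TPM in SNI and 7.95 TPM in sham, a ratio of 0.944. The ratio of reads was 0.932, with a counting interval of 0.812 to 1.07 that held 1. Afmid was the second most abundant of the 7 genes in each group.

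On the quinolinic acid branch, Kmo and Haao, which lead towards quinolinic acid, and Qprt, which uses it up, had higher averages in SNI. Kmo (Gene ID 59113) had 82 reads over the SNI libraries and 12 over the sham libraries. The ratio of its average TPM was 6.03 and that of its reads 6.83, with a counting interval of 3.71 to 13.8. The interval is wide because of the few sham reads. By ratio Kmo ranked 142 among the 678 genes of the authors' higher list that had averages. Among 1603 genes with a sham average between 2 and 8 reads, within a factor of 2 of that of Kmo, 54 (3.37%) had a ratio at least as large, and 103 (6.43%) were in the authors' higher list.

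Haao (Gene ID 56823), the enzyme that makes the precursor of quinolinic acid, was the least abundant in both groups. It averaged 0.440 TPM in SNI and 0.187 TPM in sham, from 24 and 8 reads in SNI and sham, and the ratio of 2.36 in TPM was 3.00 in reads, with a counting interval of 1.30 to 7.72. Qprt (Gene ID 293504), which takes quinolinic acid into NAD synthesis, rested on 692 reads in SNI and 441 in sham. Its ratio was 1.55 in TPM and 1.57 in reads, with a counting interval of 1.39 to 1.77. In the order of levels, Qprt lay at percentile 63.7 of all genes in SNI and 55.6 in sham, and Haao at percentile 15.0 in SNI and 10.5 in sham.

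On the kynurenic acid branch, Aadat (Gene ID 29416), kynurenine aminotransferase II, averaged 2.94 TPM in SNI and 2.40 TPM in sham, a ratio of 1.22. Its 147 and 120 reads in SNI and sham gave a ratio of 1.22 with a counting interval of 0.956 to 1.57, which held 1. Set beside the competing branch, the level of Aadat was 1.88 times that of Kmo in SNI and 9.24 times that of Kmo in sham. The level of Qprt was 13.6 times that of Kmo in SNI and 53.1 times in sham.

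**Figure D2:**
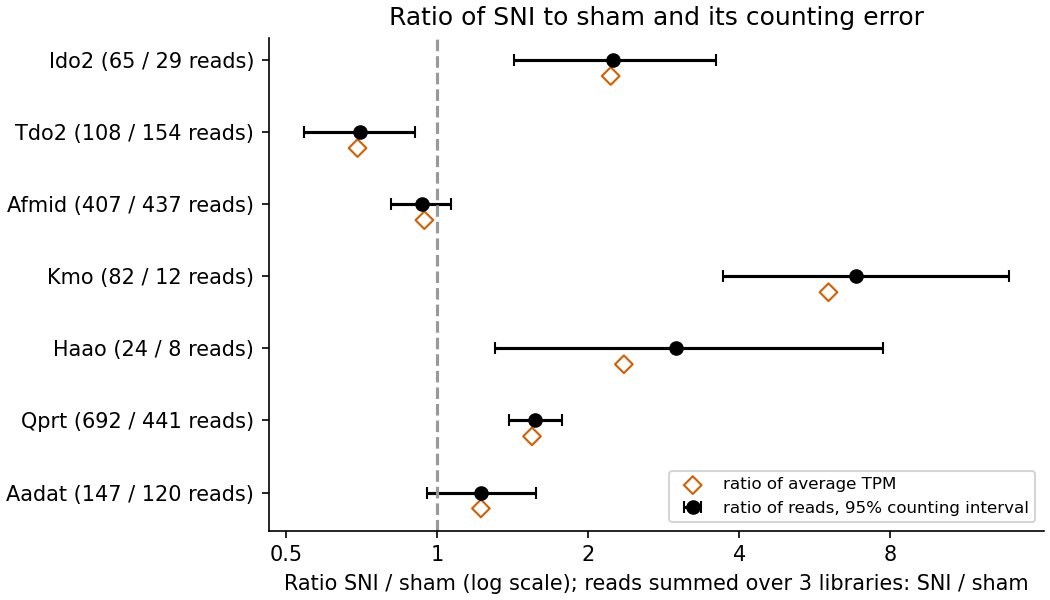
Ratio of SNI to sham for each gene (log scale). Filled circles with bars give the ratio of reads with its 95% counting interval, which does not include the spread between libraries, and open diamonds the ratio of average TPM. The numbers beside each name are reads summed over the SNI and the sham libraries. The intervals of Ido2, Kmo, Haao and Qprt lie above 1, that of Tdo2 lies below 1, and those of Afmid and Aadat hold 1.

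In sum the 7 genes made up 36.8 TPM in SNI and 28.3 TPM in sham, and Qprt gave 57.9% of that level in SNI and 48.7% in sham. The share of Kmo was 4.25% in SNI and 0.919% in sham, and that of Tdo2 6.38% in SNI and 12.0% in sham. The order of levels was Qprt, Afmid, Aadat, Tdo2, Kmo, Ido2 and Haao in SNI. In sham it was Qprt, Afmid, Tdo2, Aadat, Ido2, Kmo and Haao. Without a spread, whether neighbours in these orders differ could not be tested. As log2(TPM + 1), a scale that shrinks the ratios of low genes, the median difference of the 7 genes was 0.28, against 0.02 over all genes with averages, and that of Kmo was 1.03.

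A ratio of average TPM of at least 1.5 was reached in the higher direction by 4 of the 7 genes (Ido2, Kmo, Haao and Qprt) and in the lower direction by 0 of them. Over all genes 13.8% reached it in the higher and 7.42% in the lower direction. The labels and headers give no threshold behind the authors' lists. The lowest ratio of averages in the authors' higher list was 1.80, so Ido2 and Haao had larger ratios than some listed genes and were in neither list. Of 1433 genes with a ratio of at least 2 across the table, 761 were outside the higher list.

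Like the average of Kmo, those of macrophage markers were higher in SNI. All 13 macrophage genes found had a higher average in SNI, 10 were in the authors' higher list and none was listed at 0. Over all genes with averages, 53.1% were higher in SNI and 3.63% were in that list. The averages of the 13 summed to 666 TPM in SNI and 282 TPM in sham. C1qa and C1qb, named after their values were seen, gave 197 and 180 TPM of that sum in SNI and 81.7 and 81.0 TPM in sham. Cd68, a lysosomal protein of macrophages, averaged 50.3 TPM in SNI and 18.5 TPM in sham, a ratio of 2.71, and the macrophage growth factor receptor Csf1r had a ratio of 1.90, both named after their values were seen. For the 5 of the 13 with TPM per library, the sum ran from 62.7 to 66.1 TPM in SNI and from 25.4 to 26.5 TPM in sham. Of these 5, 3 rose with limma, and 32.0% of all genes tested were called higher. The other 2, Mrc1 and Cd163, named after their values were seen, did not pass (log2 fold changes 0.18 and 0.04, limma adjusted p = 0.073 and 0.73). Fcgr3a gave 31.4 TPM of the sum in SNI and 7.07 TPM in sham. By ratio of averages the highest of the 13 was Fcgr3a at 4.45, and Kmo was at 6.03. All 5 T and NK cell markers and all 5 erythrocyte markers found were also higher in SNI. They summed to 16.5 and 660 TPM in SNI and to 5.85 and 201 TPM in sham. Hbb, named after its value was seen, gave 589 TPM of the erythrocyte sum in SNI and 183 TPM in sham. The part of any of these cells in the difference of Kmo was not tested. Of the 8 dendritic cell markers, which include genes of cells known to use Ido1, 7 had a higher average in SNI. The 8 summed to 36.5 TPM in SNI and 27.2 TPM in sham. Irf8, also counted in the interferon and cytokine list below, gave 13.4 TPM of that sum in SNI and 5.23 TPM in sham. Flt3, the 1 lower gene, averaged 10.5 TPM in SNI and 14.9 TPM in sham. Both were named after their values were seen. The 5 Schwann cell markers summed to 5867 TPM in SNI and 10788 TPM in sham, and the 8 sensory neuron markers to 20980 TPM in SNI and 22583 TPM in sham.

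Promoter sequence of 2 genes is shown because Kmo was the listed gene and Qprt the most abundant one. The RefSeq promoter table of the GRCr8 assembly held 7 of the 10 genes, all but Ido1, Ido2 and Acmsd. The 250 bases before the table's start were searched on both strands for 5 motifs: the interferon-stimulated response element (GAAA, any 2 bases, GAAA), the gamma-activated site (TTCNNNGAA), the AP-1 site (TGANTCA), the core of the aryl hydrocarbon response element (GCGTG) and a glucocorticoid half-site (TGTTCT). In Kmo the table's start lies inside the annotated gene, so only the 69 bases before the whole gene are printed (GRCr8 chr13:90089271-90089339, plus strand). Its match to the interferon-stimulated response element, in capitals, begins 217 bases before the table's start and 36 bases before the gene. For Qprt all 250 bases are printed (GRCr8 chr1:191164007-191164256, minus strand), with the AP-1 match that begins 122 bases before the start in capitals.
Kmo: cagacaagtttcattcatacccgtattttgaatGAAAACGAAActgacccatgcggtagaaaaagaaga
Qprt: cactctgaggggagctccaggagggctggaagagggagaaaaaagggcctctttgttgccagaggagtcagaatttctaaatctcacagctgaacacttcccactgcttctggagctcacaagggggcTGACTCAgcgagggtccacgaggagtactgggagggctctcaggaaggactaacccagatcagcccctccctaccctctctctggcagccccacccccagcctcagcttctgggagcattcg

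The interferon-stimulated response element was found in 1 of the 7 promoters (Kmo) and in 3.41% of 33469 promoters of the same length. The AP-1 site was found in 1 of the 7 (Qprt) and in 6.34% of all promoters, the aryl hydrocarbon element core in 1 of the 7 (Aadat, where the window lies inside the annotated gene) and in 25.9%, and the glucocorticoid half-site in 1 of the 7 (Haao) and in 17.5%. The gamma-activated site was found in 0 of the 7 and in 7.67% of all promoters. A match of letters is a description of the sequence, and no binding was measured.

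The genes around the pathway were taken from 11 lists, of which 80 genes had averages. Of these, 49 had a higher and 31 a lower average in SNI, the authors' higher list held 10 of them and their lower list 1. Over all genes with averages, 53.1% were higher in SNI, the authors' higher list held 3.63% and their lower list 0.695%. TPM per library was given for 11 of the 80. With limma on the whole per-library table, 7 of the 11 rose, 2 fell and 2 did not pass at a Benjamini-Hochberg adjusted p under 0.05. Across that table, which is itself a selection by the authors, 32.0% of the 1596 genes tested were called higher and 29.2% lower. With quantile normalization the calls across the table were 402 higher and 608 lower, in place of 510 and 466. Nothing in the labels ties each library to its own animal, and these p-values thus reflect only how the libraries vary, which may be technical.

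**Figure D3:**
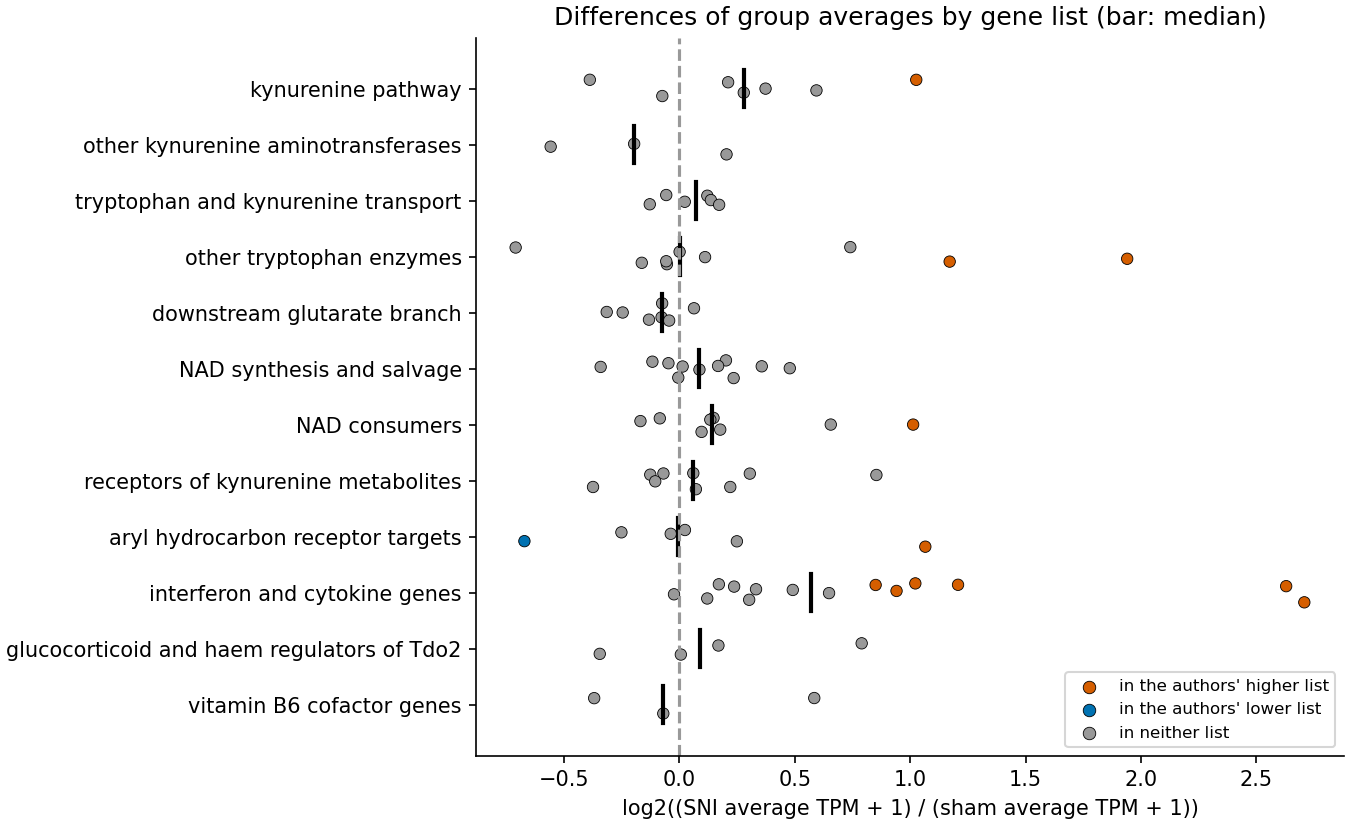
Difference of group averages for the kynurenine pathway and 11 lists of related genes, as log2 of the ratio of SNI to sham after adding 1 TPM, with 1 point a gene, a bar at each list's median, and colour for membership of the authors' lists. The median of the kynurenine pathway is 0.28 and that of the interferon and cytokine list 0.57, and the other medians lie between -0.20 and 0.14.

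A list of interferon and cytokine genes, with inducers of Ido1 and their signalling chain, had the highest median of the related lists. It also holds Socs1 and Socs3, which inhibit cytokine signalling, and both were among its members in the authors' higher list. Of 14 found, 13 had a higher average in SNI, 6 were in the authors' higher list, and all 4 tested rose. Over all genes with averages, 53.1% were higher in SNI and 3.63% were in that list. Of all genes tested with limma, 32.0% were called higher. Socs3, an inhibitor of cytokine signalling, was at 47.4, 48.2 and 51.2 TPM in the SNI libraries, against 5.73, 7.18 and 8.31 TPM in the sham libraries (log2 fold change 2.64, SE 0.11, limma adjusted p = 6.1e-08). Ifngr2, a chain of the interferon-gamma receptor, was at 46.8, 49.1 and 46.5 TPM in SNI libraries and 35.55, 33.4 and 31.5 TPM in sham libraries (log2 fold change 0.49, SE 0.06, limma adjusted p = 7.7e-05). For both genes each SNI library lay above each sham library, which adds little, as they were named for passing the test. The macrophage markers, at 666 TPM in SNI and 282 TPM in sham in sum, were also higher in SNI. All 5 T and NK cell markers found had higher averages in SNI, with sums of 16.5 TPM in SNI and 5.85 TPM in sham, and both tested rose. Of 6 neutrophil markers 4 had higher averages, and the 6 summed to 447 TPM in SNI and 286 TPM in sham. Most of that was S100a8 and S100a9, at 147 and 262 TPM in SNI and 101 and 160 TPM in sham. The 2 lower ones were Elane and Mpo, and Mpo, the 1 tested, did not pass. These 4 genes were named after their values were seen. None of these markers was listed at 0, and their part in the list's difference was not tested.

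Among other enzymes that use tryptophan or its products, 9 were found and 2 of 2 tested rose. Tph2, which starts serotonin synthesis from the same amino acid, averaged 35.2 ± 0.987 TPM in SNI and 8.43 ± 1.11 TPM in sham (SD, n = 3 each; log2 fold change 1.95, SE 0.09, limma adjusted p = 1.1e-07). Inmt, which methylates tryptamine and other indoles, averaged 9.14 ± 1.01 TPM in SNI and 5.07 ± 1.03 TPM in sham (SD, n = 3 each; log2 fold change 0.75, SE 0.13, limma adjusted p = 0.00096). In the authors' deposited lists, the KEGG name tryptophan metabolism was given to 6 of the 312 higher genes with a pathway name, namely Kmo, Tph2, Maoa, Cyp1b1, Aox2 and Aoc1, and to 0 of the 49 lower genes with 1. Kmo was thus the only kynurenine pathway enzyme among the 6. How many genes of the whole series carry that name was not counted, so 6 of 312 and 0 of 49 are not read as a difference. Per the authors' deposited table of averages, Aox2 and Aoc1 rested on 23.9 and 10.3 average reads in SNI and 9.03 and 0.333 in sham.

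The other enzymes that make kynurenic acid are more abundant than Aadat. Of the 3 found, 1 had a higher and 2 a lower average in SNI, with no test. Got2, a mitochondrial aspartate aminotransferase, averaged 465 TPM in SNI and 404 TPM in sham, and Kyat1, kynurenine aminotransferase I, 15.75 TPM in SNI and 23.7 TPM in sham, a ratio of 0.666. Of 3 vitamin B6 genes, which supply the cofactor of the aminotransferases and of kynureninase, 1 was higher and 2 lower in SNI. Pdxp, a phosphatase of the active cofactor, averaged 38.8 TPM in SNI and 50.4 TPM in sham.

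Tryptophan and kynurenine cross membranes by large neutral amino acid transporters. Averages were given for 6 transporter genes, 4 higher and 2 lower in SNI, and none was in the authors' lists or tested. Slc3a2 and Slc7a5, the chains of the main transporter, averaged 208 and 61.4 TPM in SNI and 189 and 56.3 TPM in sham.

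Downstream of the pathway, 11 genes of NAD synthesis and salvage had averages, 7 higher and 4 lower in SNI, and none was in the authors' lists. Nmnat2, the NAD-making enzyme of axons, averaged 66.1 TPM in SNI and 65.4 TPM in sham, and Nadk, which phosphorylates NAD, 35.3 TPM in SNI and 31.3 TPM in sham. Of 8 genes of enzymes that use up NAD, 6 had a higher and 2 a lower average. Sirt2 averaged 181 TPM in SNI and 192 TPM in sham, and Parp1 73.8 TPM in SNI and 65.1 TPM in sham. Cd38, an NAD-splitting enzyme of immune cells, was named here after its value was seen. It was the 1 gene of that list in the authors' higher list, at 6.10 TPM in SNI and 2.52 TPM in sham. The macrophage markers were higher in SNI too, and their part in the difference of Cd38 was not tested. Of 7 genes of the glutarate branch, 1 had a higher and 6 a lower average in SNI. Ogdh averaged 123 TPM in SNI and 127 TPM in sham, and Hadh 87.0 TPM in SNI and 95.45 TPM in sham.

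Kynurenic and quinolinic acid act on NMDA-type glutamate receptors, and kynurenic acid also on Gpr35. Of 9 genes of receptors and their partners found, 5 had a higher and 4 a lower average in SNI, and of 3 tested, 1 fell and 2 did not pass. Grin1 encodes the obligatory subunit of NMDA-type receptors. It was at 68.55, 67.8 and 69.7 TPM in SNI libraries and 89.6, 84.6 and 93.7 TPM in sham libraries (log2 fold change -0.37, SE 0.05, limma adjusted p = 0.00021). Of the 8 sensory neuron markers, 6 had a lower average in SNI, with a median difference of -0.35 as log2(TPM + 1). The 2 higher ones, Tubb3 and Prph, had differences of 0.37 and 0.30 on that scale. The 1 of the 8 markers tested, the sodium channel gene Scn10a, had a log2 fold change of -0.37 like Grin1. The part of these markers in the fall of Grin1 was not tested. Gpr35 and the acetylcholine receptor gene Chrna7 had log2 fold changes of -0.12 (SE 0.06, limma adjusted p = 0.10) and -0.10 (SE 0.08, limma adjusted p = 0.29). Both were called lower with quantile normalization (limma adjusted p = 0.0013 and 0.010). The aryl hydrocarbon receptor Ahr, which binds kynurenine and was named after its value was seen, averaged 12.2 TPM in SNI and 6.31 TPM in sham and was in neither list of the authors. Of 6 known targets of that receptor, 3 had a higher and 3 a lower average in SNI. Nqo1 averaged 88.2 TPM in SNI and 86.7 TPM in sham, and Cyp1b1 25.05 TPM in SNI and 11.4 TPM in sham, with Cyp1b1 in the authors' higher list. Aldh3a1, named after its value was seen, was in the authors' lower list, from 8 reads over the SNI libraries.

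Glucocorticoids and haem are the known regulators of Tdo2. Of 4 genes of glucocorticoid action or haem metabolism, both genes tested passed, 1 in each direction. Hmox1, which breaks down haem, averaged 45.8 ± 0.966 TPM in SNI and 26.1 ± 3.59 TPM in sham (SD, n = 3 each; log2 fold change 0.80, SE 0.09, limma adjusted p = 5.7e-05). Fkbp5, a glucocorticoid-induced gene, averaged 22.6 ± 0.902 TPM in SNI and 28.9 ± 1.63 TPM in sham (SD, n = 3 each; log2 fold change -0.34, SE 0.06, limma adjusted p = 0.0011). Beside Hmox1, which macrophages clearing red cells also express, the 5 erythrocyte markers found all rose, with a sum of 656 to 667 TPM in SNI libraries and 197 to 205 TPM in sham libraries. Most of that sum was Hbb, named after its value was seen, with averages of 589 TPM in SNI and 183 TPM in sham. The part of these markers in the rise of Hmox1 was not tested.

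**Figure D4:**
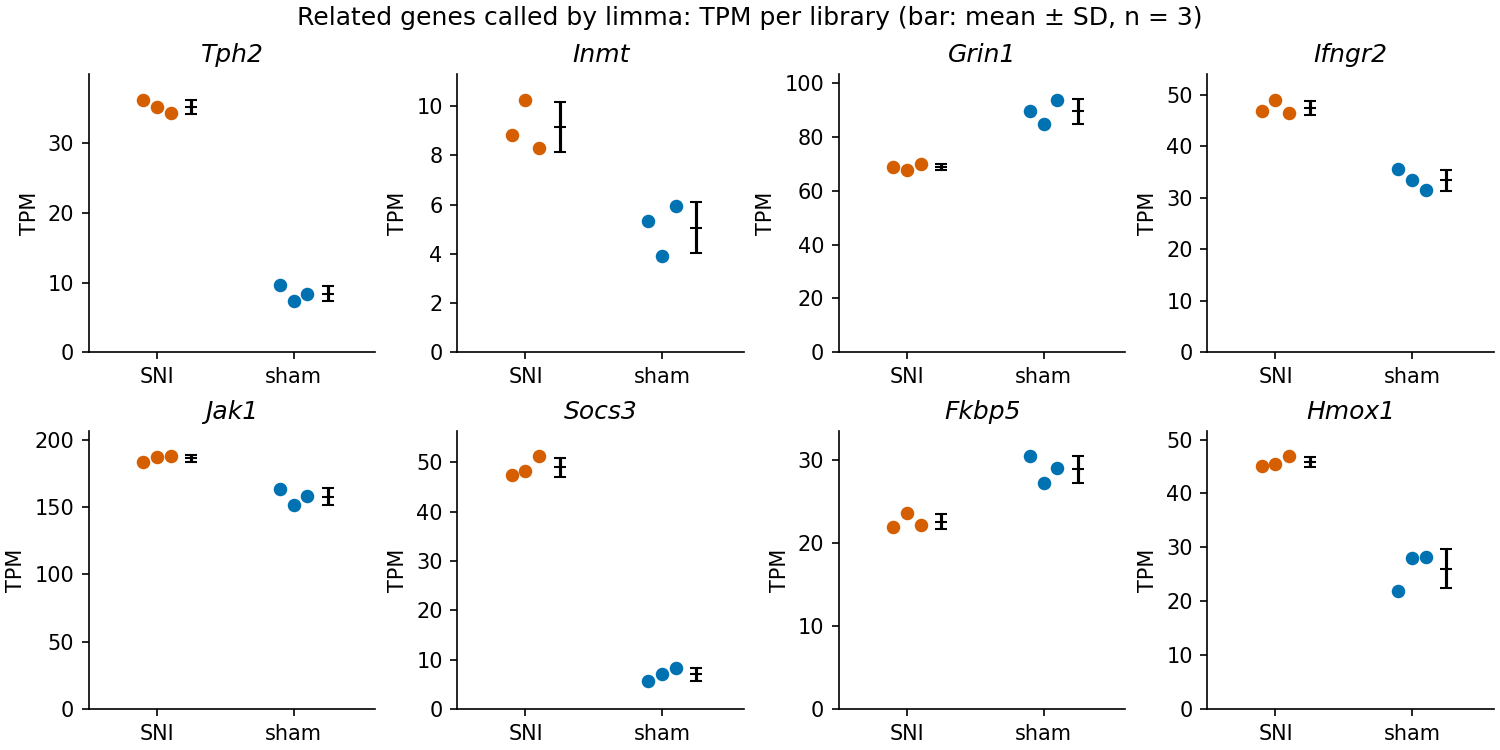
TPM in each library for 8 of the 9 related genes that passed the limma test, SNI at the left and sham at the right of each panel, with the mean and SD of 3 libraries beside the points. The SNI libraries lie above the sham libraries for 6 genes and below them for Grin1 and Fkbp5. The genes were chosen by that test, so this separation adds nothing to it. The share of genes so separated across the per-library table was not counted.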

How the data were processed

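RNA sequencing values of 3 SNI and 3 sham libraries were used. The authors deposited TPM per library for 1637 genes and, per the file headers, group averages of TPM and of read counts for 18696 genes, all above 0 in both groups. These are expected counts averaged by the authors, with no counter or normalization given. They summed to 18.5907 M in SNI and 18.5901 M in sham, and the depth of a single library is unknown. Whether the counts were scaled to a like depth is not stated, and the counting intervals take them as unscaled reads. The authors also deposited the IDs and KEGG pathways of genes they list as higher (699) and lower (136), of which 678 and 130 had averages. Columns headed control were read as sham, the group other than SNI. No aligner, build or annotation is named in the sources read here.

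Members were matched by symbol and gene ID. As counts per library were not used, limma 3.58.1 (R 4.3.3) was run on log2(TPM + 1) of the whole per-library table, with a trend on intensity, no covariate beside group, a minimum mean of 1 TPM (1596 genes) and Benjamini-Hochberg adjustment. It was tested on simulated data. With 3 libraries a group, the smallest two-sided p of an exact permutation test is 0.1, and none was run. Ratios, intervals and motif searches used Python 3.11.15 with scipy 1.17.1. The members and lists were chosen with earlier results of these data known. All members are named; of each related list up to 3 called genes, by size of change, or else the 2 most abundant, with exceptions marked. The search for genes of like pattern could not be made, as no member had values per library. Results for 2 genes of the related lists are not reported here.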

Additional observations from a re-analysis of the deposited data

How the results depend on the processing

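The number of pathway genes with a higher average in SNI was 5, and 3 when only genes with an average of at least 1 TPM in either group were counted. Of these 3, Kmo passed that filter only through SNI, the group where it was high (1.57 TPM, against 0.260 TPM in sham). For Kmo the log2 ratio was 1.03 with a pseudocount of 1 TPM and 2.21 with 0.1 TPM. No member changed direction under the alternatives run, but most of them could not change it. A pseudocount leaves the direction of a ratio as it is, and a filter on reads left the values of the genes it kept unchanged. Only the version from average read counts could have changed a direction. It comes from the same libraries, so the kept directions are not further evidence. The called related genes kept their calls and direction under every alternative run. Leaving out 1 library at a time gave 445 to 524 genes higher and 387 to 477 lower across the per-library table. Gpr35 also passed without the second sham column (limma adjusted p = 0.033). No paired analysis was possible because the numbers of the control columns are not tied to labelled sham samples and no member had values per library. Alternatives for counts per library were not run. The few reads of Kmo, Haao and Ido2 limit their ratios.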
